A study of Mus musculus with 2 samples.

Results

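The genes described here encode glycolytic enzymes that exist as several paralogs, and the set holds 10 of the 43346 mouse genes quantified: Hk1, Hk2, Pfkp, Aldoa, Aldoc, Pgk1, Eno2, Pkm, Ldha and Ldhb. They were chosen by symbol, not by level, and all 10 were matched by Ensembl identifier in both libraries. With their remaining paralogs, the 7 enzymes they belong to comprise 23 genes. Total RNA-seq had been made from the neural tube of healthy mouse embryos at day 12.5 of development. The embryos were of strain B6NCrl, with no allele or agent named in the labels. There was 1 group of 2 biological replicates. Replicate 1 pooled the neural tubes of 120 embryos and replicate 2 those of 88, of both sexes, so the spread between them is a spread between pools and not between animals. Each library started from 10 ng of RNA, and the files hold 32612423 and 34555002 expected counts, the estimated number of reads assigned. With 1 group and no contrast, levels, shares and the difference between the pools are described without p-values.

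Glycolysis splits glucose into pyruvate, and lactate dehydrogenase can then reduce pyruvate to lactate while returning NADH to NAD+. Most of the steps can be catalysed by several isoenzymes, each from its own gene, and tissues differ in which paralog they use. In the brain the Aldoc and Eno2 products are classical markers of astrocytes and of mature neurons. The M2 form of pyruvate kinase and the Ldha product are widely associated with proliferating tissue, whereas the M1 form is the form of adult muscle and brain.

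The label neural tube was checked against marker genes. Among hindbrain and spinal Hox genes 7 of 7 were at 1 TPM (a transcript level scaled by length and depth) or more in both libraries, led by Hoxb6 at 120.2 and 125 TPM. Emx1, Otx2, Tbr1 and Six3, factors of the forebrain and midbrain, were under 1 TPM in both, and Emx2 was at 0.45 and 1.79 TPM. Neurons were represented by Tubb3 at 1004 and 1030.3 TPM and neural progenitors by Fabp7 at 1469 and 1537 TPM. Other cell types were present too: the erythroid globin gene Hbb-y stood at 5432 and 5298 TPM, the muscle actin gene Actc1 at 131 and 88.0 TPM, and the liver gene Apoa2 at 6.23 and 4.49 TPM. The endothelial gene Cldn5 was at 47.5 and 45.1 TPM and the macrophage gene C1qb at 26.9 and 28.9 TPM. Of 6 astrocyte markers, Gfap, Aqp4 and S100b were under 1 TPM in both libraries, while Glul was the highest at 107 and 101 TPM. In such bulk tissue, fewer cells of a type and less RNA per cell cannot be told apart.

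Pkm was the most abundant of the 10 genes and Hk2 the least abundant, with mean levels of 1230.4 and 7.63 TPM. The order from high to low was Pkm, Ldha, Ldhb, Aldoa, Pgk1, Pfkp, Hk1, Eno2, Aldoc and Hk2. The ranges of neighbours in this order overlapped only for Ldhb and Aldoa. Of the 13517 protein-coding genes that averaged 1 TPM or more, Pkm ranked 44 and Ldha 106, whereas Eno2 ranked 6612, Aldoc 8178 and Hk2 9983. The files also give an interval for each TPM whose level is not stated. In each library this interval held the TPM value of 6 of the 10 genes and lay below it for Pkm, Ldha, Ldhb and Aldoa, around a separately deposited posterior mean.

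**Figure D1:**
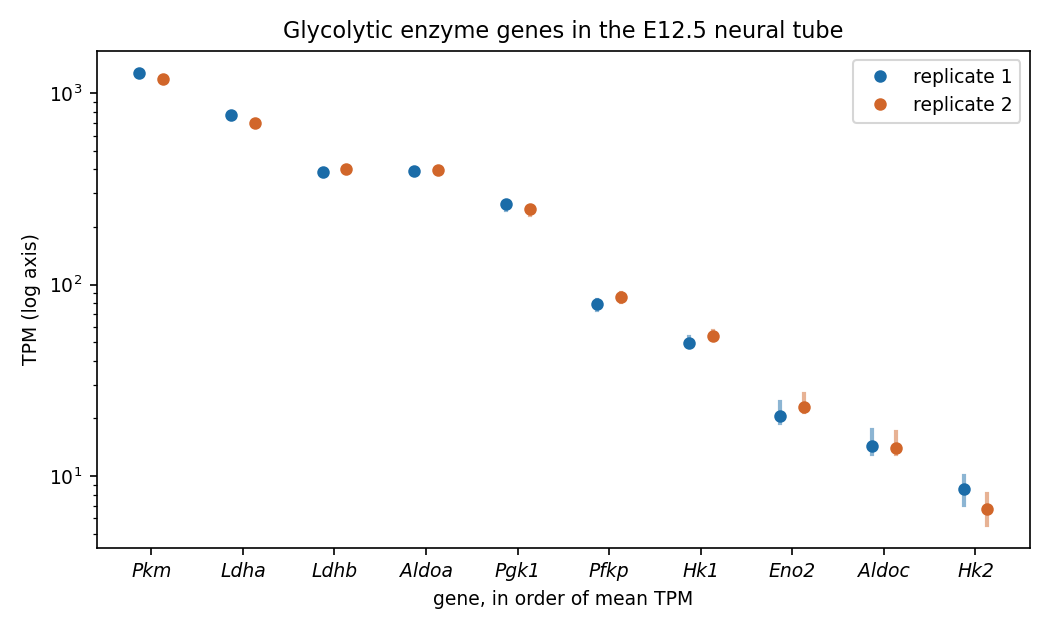
Level of each glycolytic enzyme gene in the 2 libraries. The vertical axis is TPM on a log scale, points are replicates, and the short bars are the intervals in the deposited files, which need not contain the point. Pkm stands highest at 1269 and 1192 TPM and Hk2 lowest at 8.51 and 6.75 TPM.

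Hexokinase, which traps glucose in the cell as a phosphate, had the lowest summed level of the 11 steps from hexokinase to lactate dehydrogenase. Hk1 (ENSMUSG00000037012, chr10:62268855-62379908), the form typical of brain, was at 49.4 and 53.8 TPM. Its mean was 51.6 ± 3.08 TPM (SD, n = 2), from 3843 and 4386 expected counts. Hk2 (ENSMUSG00000000628, chr6:82725025-82774454), the insulin-responsive form of muscle and fat, was at 8.51 and 6.75 TPM, from 540.0 and 495 expected counts. Hk1 lay above Hk2 in both libraries, by 5.81-fold and 7.97-fold. Hk1 therefore supplied 81.8% and 85.7% of all hexokinase TPM and Hk2 14.1% and 10.8%.

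Hk3 and Hkdc1 were both low. Hk3 was at 0.67 and 0.70 TPM and Hkdc1 at 0.13 and 0.39 TPM. Part of the Hk2 level came from Hk2-202, a 594-base processed transcript that held 45.2% and 37.8% of Hk2 TPM on 37.8 and 26.1 expected counts. The full coding transcript Hk2-201 held 54.8% and 62.2% of the TPM but 93.0% and 94.7% of the Hk2 counts. With complete coding transcripts only, the Hk1 share of hexokinase was 88.3% and 89.8%, and the Hk1 level was 10.5-fold and 12.5-fold that of Hk2. Hk1 itself was divided between Hk1-202, at 62.9% and 71.4% of its TPM, and Hk1-201, at 34.2% and 26.5%, which start at different places.

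Phosphofructokinase, the committed and strongly regulated step, was the one enzyme of the 7 in which 3 paralogs each held a sizeable share. Pfkp (ENSMUSG00000021196, chr13:6579768-6648777), the platelet form, was at 78.9 and 86.0 TPM, with a mean of 82.4 ± 5.02 TPM (SD, n = 2). The liver form Pfkl was at 84.8 and 84.4 TPM and the muscle form Pfkm at 40.9 and 41.2 TPM. Pfkl and Pfkp could not be ordered by TPM, since their ratio was 1.07 in replicate 1 and 0.98 in replicate 2. Pfkp thus held 38.6% and 40.6% of phosphofructokinase TPM.

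Most of the Pfkp signal, however, was assigned to transcripts annotated as retaining an intron. Pfkp-210, a 702-base retained-intron model within the gene (chr13:6598295-6602811), held 46.4% and 46.6% of Pfkp TPM, more than the coding transcript Pfkp-201 at 22.5% and 20.1%. Complete coding transcripts made up 26.1% and 25.3% of Pfkp TPM and 42.3% and 42.2% of its expected counts. For comparison, the median over 8184 protein-coding genes with at least 5 TPM and several transcripts was 85.7% of TPM, and 5.61% of those genes were at or below Pfkp. When complete coding transcripts alone were summed, Pfkp fell from the level of Pfkl to below Pfkm: the 3 genes stood at 20.6 and 21.7 TPM for Pfkp, 83.5 and 81.1 TPM for Pfkl, and 40.9 and 41.2 TPM for Pfkm. The Pfkp share was then 14.2% and 15.1%, so the place of Pfkp among its paralogs depended on which transcripts were counted.

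**Figure D2:**
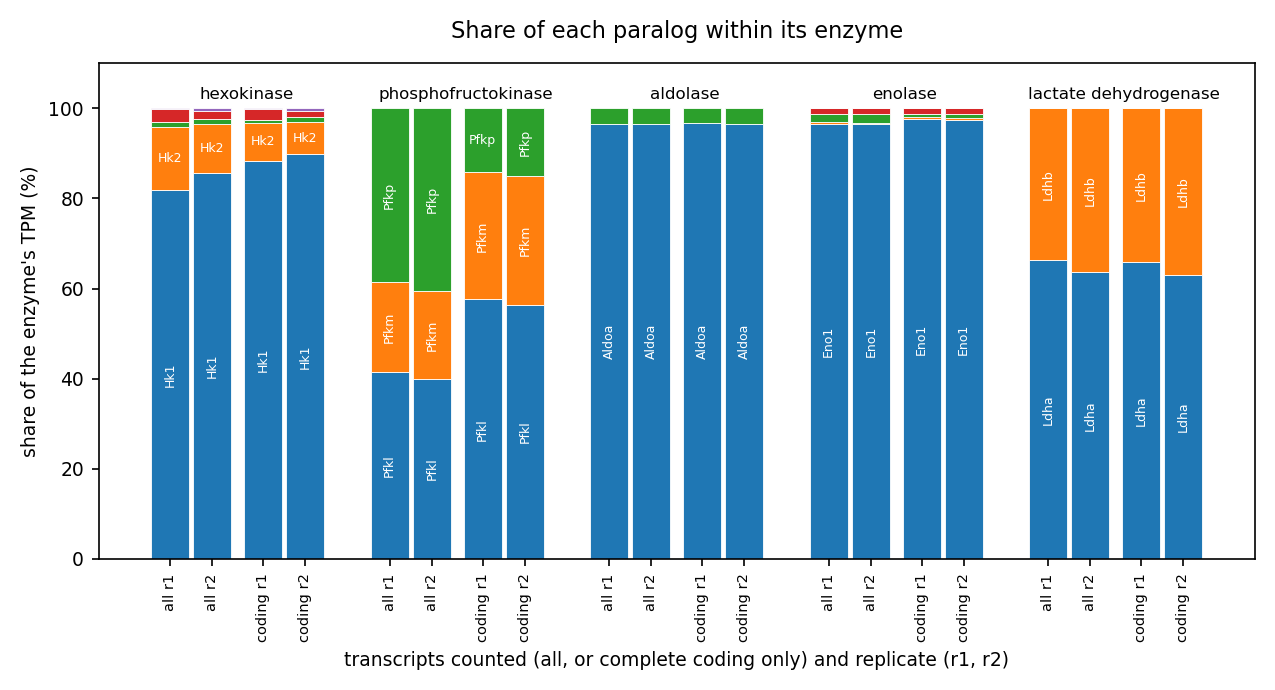
Share of each paralog in the summed TPM of its enzyme, in percent. For each of 5 enzymes the left pair of bars counts all transcripts in replicates 1 and 2 (r1, r2) and the right pair complete coding transcripts only; unlabelled slivers are the remaining paralogs, among them Hk3 and Hkdc1 for hexokinase, Aldoc for aldolase, and Eno1b, Eno2, Eno3 and Eno4 for enolase. Pfkp narrows from 38.6% and 40.6% to 14.2% and 15.1%, while Ldha and Ldhb keep similar shares.

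Aldolase, which cleaves the hexose bisphosphate into triose phosphates, came almost wholly from Aldoa. Aldoa (ENSMUSG00000030695, chr7:126795234-126800751), the ubiquitous and muscle form, was at 394 TPM in both libraries, from 10764 and 11199 expected counts. Aldoc (ENSMUSG00000017390, chr11:78322968-78327781), the brain form, was at 14.3 and 14.0 TPM, from 452 and 488 expected counts. Aldoa exceeded Aldoc by 27.6-fold and 28.1-fold and held 96.5% and 96.6% of aldolase TPM. Aldoa-201 carried 90.4% of Aldoa TPM in each library, and Aldoc-202 carried 76.0% and 82.6% of that of Aldoc.

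Phosphoglycerate kinase, the first step that makes ATP, was represented by Pgk1 alone. Pgk1 (ENSMUSG00000062070, chrX:106187100-106203699) was at 263 and 247 TPM, a mean of 255 ± 11.7 TPM (SD, n = 2) from 9028 and 8755 expected counts. Pgk2, the retrogene used in sperm development, had an expected count of 0 in both libraries, which allows up to 0.0949 and 0.0895 CPM, counts scaled to library depth. All 5 testis markers were under 1 TPM in both libraries, the highest being Ddx4 at 0.49 and 0.58 TPM. Reads of Pgk1 could be shared with processed pseudogenes: Pgk1-rs7 was 100% identical to Pgk1 over 68.8% of its leading transcript and carried 912 and 776 expected counts. With the further copy Gm5537, at 0 and 63.1 counts, these copies took 9.17% and 8.74% of the counts of Pgk1 and its copies, and the division of reads between Pgk1 and these copies is uncertain.

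Enolase was dominated by Eno1, and Eno2, the neuron-enriched gamma enolase, supplied a small part. Eno2 (ENSMUSG00000004267, chr6:124760053-124769673) was at 20.6 and 22.8 TPM, a mean of 21.7 ± 1.59 TPM (SD, n = 2) from 761 and 974 expected counts. Eno1 was at 1187 and 1193 TPM, and Eno2 held 1.67% and 1.85% of enolase TPM. The muscle form Eno3 followed closely at 16.6 and 15.9 TPM, and Eno4 was at 0.24 and 0.35 TPM. Eno1b was at 4.82 and 5.07 TPM, but its coding sequence is 99.4% identical to that of Eno1, so the division of reads between them is uncertain. The same holds for the processed pseudogene Gm4735, 99.6% identical to Eno1 over 64.2% of the leading Eno1 transcript. Gm4735 was at 31.2 and 25.9 TPM, above Eno2 in both libraries. Eno2 and Eno1 share 75.1% of aligned coding bases.

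The transcripts behind Eno2 were mixed and differed between the pools. Complete coding transcripts held 36.7% of Eno2 TPM in replicate 1 and 47.4% in replicate 2. The highest single transcript was Eno2-203, a retained-intron model at 29.3%, in replicate 1, and the coding Eno2-201, at 34.8%, in replicate 2. Eno2-201 stood at 3.69 TPM and 198 expected counts in replicate 1 and at 7.95 TPM and 442 counts in replicate 2. The other complete coding transcript, Eno2-202, went the other way, from 3.87 to 2.89 TPM and from 176 to 136 expected counts. Eno2 was the only one of the 10 genes whose leading transcript was not the same in both libraries. In coding transcripts alone, Eno2 was at 7.56 and 10.8 TPM, and Eno3, at 14.8 and 14.4 TPM, then lay above it in both libraries.

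Pyruvate kinase, which makes the last ATP of the pathway, came from Pkm. Pkm (ENSMUSG00000032294, chr9:59656368-59679375) was at 1269 and 1192 TPM, a mean of 1230.4 ± 54.2 TPM (SD, n = 2) from 58866 and 57416 expected counts. Its paralog Pklr, the liver and red cell form, was at 0.38 and 0.34 TPM. Pklr was that low in libraries that held 13771 and 13176 TPM of erythroid marker transcripts in sum. The Pkm gene makes 2 enzyme forms by choosing between mutually exclusive coding exons, and both forms were present. The M2 form, from the transcript Pkm-201, made up 71.5% and 71.4% of Pkm TPM, and the M1 form, from Pkm-202, 28.5% and 28.6%. The M2 share was 71.5% ± 0.11 (SD, n = 2), so the pools were close to each other. In level, M2 stood at 908 and 851 TPM and M1 at 361 and 341 TPM, so the M1 form alone was above the whole of Pgk1. These were the only 2 Pkm transcripts in the files, and the posterior mean did not move the M2 share beyond that spread.

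The exons are shown because their sequence sets the 2 enzyme forms. The transcript models Pkm-201 (chr9:59656368-59679375) and Pkm-202 (chr9:59656573-59679189) also differ at both ends, so the M2 share does not rest on reads in these exons alone. Both are 167 bases long and are exon 9 of 11 in their own transcript, at chr9:59675029-59675195 for M1 and chr9:59675568-59675734 for M2, + strand of GRCm38. The sequences, from GENCODE M21 transcripts, run 5′ to 3′, and capitals mark the 64 bases at which they differ when placed side by side without gaps.
M1 exon: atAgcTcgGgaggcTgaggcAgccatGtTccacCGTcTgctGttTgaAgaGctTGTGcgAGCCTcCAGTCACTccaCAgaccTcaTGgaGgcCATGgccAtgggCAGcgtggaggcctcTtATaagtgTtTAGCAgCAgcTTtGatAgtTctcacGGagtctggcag
M2 exon: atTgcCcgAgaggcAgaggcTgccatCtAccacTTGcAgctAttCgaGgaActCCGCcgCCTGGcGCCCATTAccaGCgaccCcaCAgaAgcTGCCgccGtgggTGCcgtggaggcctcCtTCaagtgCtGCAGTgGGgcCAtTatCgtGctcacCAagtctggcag
The exons are identical at 103 positions, 61.7% of their length, and differences occur along the whole exon. G and C make up 56.3% of the M1 exon and 62.9% of the M2 exon. Pkm-201 and Pkm-202 are both 2432 bases long, so the length correction was the same for both forms. The M2 share by expected counts, 71.5% in replicate 1 and 71.4% in replicate 2, therefore had to match that by TPM.

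Transcripts of 8 listed genes, whose proteins are known to act on this exon choice, were all at 1 TPM or more in both libraries. Hnrnpa2b1 was at 948 and 978 TPM, Hnrnpa1 at 974 and 942 TPM, and Srsf3 at 773 and 728 TPM. Ptbp3 was the lowest at 24.8 and 29.0 TPM. Hnrnpa1, Hnrnpa2b1 and Ptbp1 are repressors of the M1 exon. The list also holds Rbm4 and Nova1, whose levels and roles are not given here. The part of any listed gene in the M2 share was not tested. Ptbp1 was at 145 and 156 TPM and its neuronal relative Ptbp2 at 175 and 179 TPM, both named here after their values had been seen.

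After phosphofructokinase, lactate dehydrogenase was the enzyme least dominated by a single paralog. Ldha (ENSMUSG00000063229, chr7:46841475-46855627), which encodes the subunit that favours lactate formation, was at 764 and 699 TPM. Its mean was 732 ± 46.1 TPM (SD, n = 2), from 22368 and 21163 expected counts. Ldhb (ENSMUSG00000030246, chr6:142490249-142507957), the heart-type subunit, was at 389 and 399 TPM, a mean of 394 ± 6.99 TPM (SD, n = 2) from 9330.5 and 9930.0 expected counts. Ldha exceeded Ldhb in both libraries, by 1.96-fold and 1.75-fold. Ldha thus held 66.2% and 63.6% of lactate dehydrogenase TPM and Ldhb 33.7% and 36.4%. The sperm form Ldhc was at 0.16 and 0.04 TPM. Each gene was read mainly from a single coding transcript, Ldha-202 at 97.8% and 97.3% of Ldha TPM and Ldhb-201 at 99.9% of Ldhb TPM in both libraries.

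Stretches upstream of the starts are shown for Ldha, Pgk1 and Ldhb, since these genes were read almost wholly from one start each and are high in the tissue. The windows hold the 250 bases before the start site, from RefSeq on GRCm38.p6, at chr7:46845554-46845803 for Ldha (+ strand), chrX:106186850-106187099 for Pgk1 (+ strand) and chr6:142507958-142508207 for Ldhb (− strand). Capitals mark ACGTG or GCGTG on either strand, the cores of the element bound by hypoxia-inducible factor, for which Ldha and Pgk1 are textbook targets.
Ldha upstream: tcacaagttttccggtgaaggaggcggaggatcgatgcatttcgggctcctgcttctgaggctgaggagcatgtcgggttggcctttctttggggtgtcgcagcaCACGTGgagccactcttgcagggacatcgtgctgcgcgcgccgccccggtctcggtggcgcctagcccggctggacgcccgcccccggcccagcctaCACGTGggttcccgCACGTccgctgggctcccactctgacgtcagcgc
Pgk1 upstream: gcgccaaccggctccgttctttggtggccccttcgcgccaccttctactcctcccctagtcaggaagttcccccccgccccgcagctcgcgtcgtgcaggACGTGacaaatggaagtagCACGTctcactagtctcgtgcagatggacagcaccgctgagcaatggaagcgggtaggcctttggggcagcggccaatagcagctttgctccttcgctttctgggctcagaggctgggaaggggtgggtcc
Ldhb upstream: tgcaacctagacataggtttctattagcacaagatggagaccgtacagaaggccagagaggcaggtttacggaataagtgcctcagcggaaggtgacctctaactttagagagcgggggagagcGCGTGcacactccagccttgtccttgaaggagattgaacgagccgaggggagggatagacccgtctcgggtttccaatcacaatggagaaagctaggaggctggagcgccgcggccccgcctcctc
In the Ldha window, ACGTG or its reverse complement CACGT stood at 3 places, which made 5 matches because the palindrome CACGTG at some of them counts on both strands. The Pgk1 window held ACGTG at 2 places. The Ldhb window held no ACGTG and a single GCGTG. Over all 16 start windows of the 10 genes, 6 held ACGTG, at starts of Aldoa, Hk2, Ldha, Pgk1 and Pkm. No quantified transcript begins within 50 bases of that Pkm start, so signal from it could not be measured. Of these 6, 2 are overlapping Aldoa windows that hold the same match. This compares with 16.6% of the 32851 windows of that length in RefSeq. GCGTG or its reverse complement CACGC stood in 6 of the 16 windows and in 28.2% of all windows. The transcript starts at the leading Ldha site carried 98.5% and 98.0% of Ldha TPM, and no binding was measured in these libraries. Outside glycolysis, of 13 genes known as targets of the factor, 12 were at 1 TPM or more in both libraries. All 7 listed pentose phosphate genes reached that level too, so this count shows nothing particular to targets of the factor. Bnip3 was at 69.4 and 70.9 TPM, Ddit4 at 63.1 and 65.5 TPM, Kdm3a at 47.7 and 48.9 TPM, and Car9, the lowest, at 0.34 and 0.28 TPM.

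Placed along the pathway, the summed level was lowest at the entry step, hexokinase. The means over the 2 libraries were 61.6 TPM for hexokinase, 204 TPM for the isomerase Gpi1, 208 TPM for phosphofructokinase and 408 TPM for aldolase. They were 390 TPM for Tpi1, 255 TPM for phosphoglycerate kinase and 466 TPM for the Pgam genes, among which Pgam1 stood at 458 and 455 TPM and the muscle form Pgam2 at 11.5 and 6.41 TPM. Enolase reached 1234 TPM, pyruvate kinase 1231 TPM and lactate dehydrogenase 1126 TPM. Gapdh was the highest of the glycolysis genes at 1425 and 1334 TPM, with the sperm form Gapdhs at 1.20 and 1.13 TPM. Most of the Gapdh TPM came from a 483-base processed transcript, Gapdh-208, which held 63.5% and 62.8% of it. By expected counts, complete coding transcripts held most of Gapdh, 64.2% and 65.2%. In complete coding transcripts the GAPDH step summed to 494 ± 14.4 TPM (SD, n = 2), below enolase, pyruvate kinase and lactate dehydrogenase, and phosphofructokinase fell from 208 to 145 TPM. The other 9 steps changed by less in proportion, and hexokinase stayed the lowest step, at 56.9 ± 2.42 TPM (SD, n = 2).

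**Figure D3:**
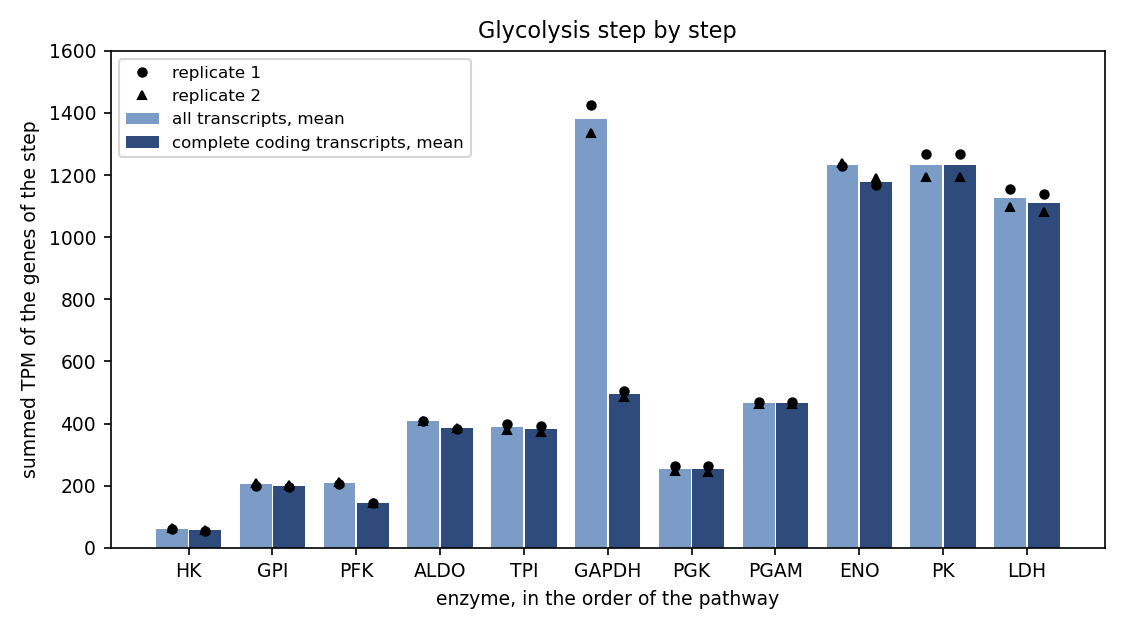
Summed TPM of the genes of each glycolytic step, in pathway order: hexokinase (HK), glucose phosphate isomerase (GPI), phosphofructokinase (PFK), aldolase (ALDO), triosephosphate isomerase (TPI), glyceraldehyde phosphate dehydrogenase (GAPDH), phosphoglycerate kinase (PGK), phosphoglycerate mutase (PGAM), enolase (ENO), pyruvate kinase (PK) and lactate dehydrogenase (LDH). Bars are means of the 2 replicates over all transcripts (light) or complete coding transcripts (dark), and points are the replicates; GAPDH drops from 1380.4 to 494 TPM and PFK from 208 to 145 TPM.

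Across the 10 genes, the share of TPM in complete coding transcripts separated a group of 3 from the rest. Hk1, Aldoa, Aldoc, Pgk1, Pkm, Ldha and Ldhb had mean shares of 91.7% to 100%. Hk2 stood at 58.5%, Eno2 at 42.1% and Pfkp at 25.7%, all below the lower quartile of 63.2% among the 8184 genes. By expected counts the share of Hk2 was 93.0% and 94.7%, because its short noncoding model took few reads. Pfkp and Eno2 remained low by counts too, at 42.3% and 42.2% and at 49.1% and 59.4%.

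**Figure D4:**
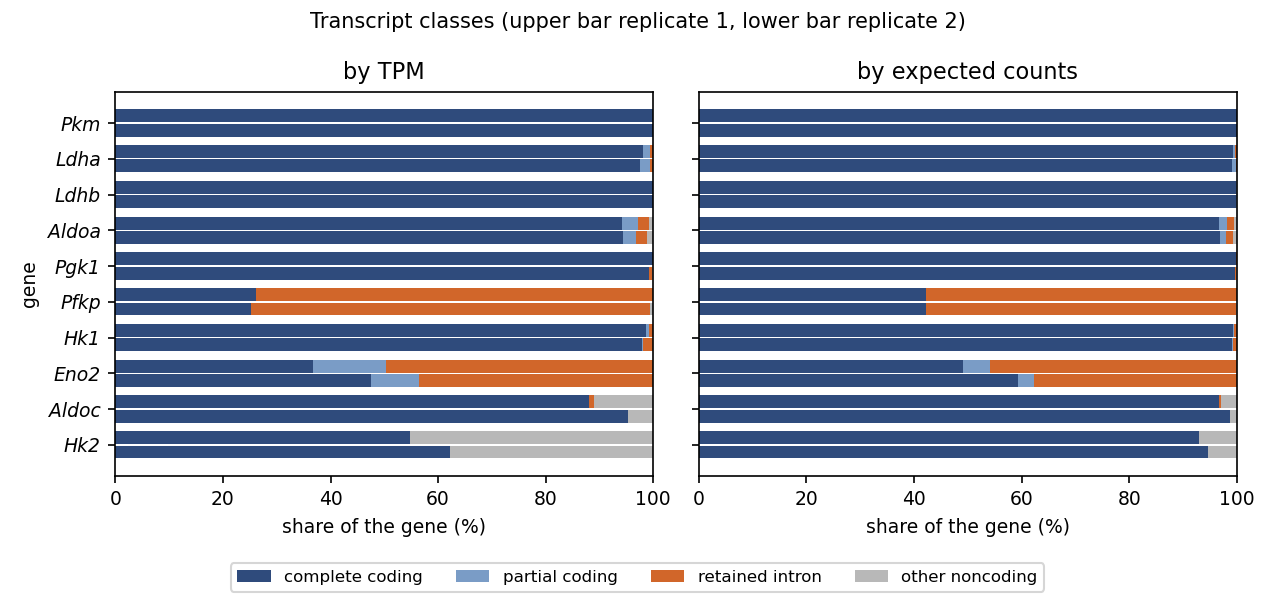
Division of each gene among complete coding, partial coding, retained-intron and other noncoding transcripts, as a percentage of its TPM (left) and of its expected counts (right), with replicate 1 above replicate 2 for each gene. Retained-intron models fill most of Pfkp in both panels, whereas the noncoding part of Hk2 shrinks from 45.2% and 37.8% of TPM to 7.0% and 5.27% of counts.

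Between the pools the 10 genes moved little. The log2 ratio of TPM + 1 was taken as replicate 2 over replicate 1. Of the 10 genes 5 were higher and 5 lower in replicate 2, a division in which Aldoa, Aldoc and Ldhb, all near 0, change sign when counts are scaled with TMM. The ratios ran from -0.30 for Hk2 to 0.14 for Eno2, with a median of -0.01 against 0.03 over all 15735 genes that averaged 1 TPM or more. None of the 10 was over 2-fold apart, as were 1.43% of all genes, 0.597% higher and 0.833% lower in replicate 2. The deposited intervals did not overlap for 2 of the 10, Pkm and Ldha, both lower in replicate 2. Over all genes the intervals were apart for 14.3%, with 4.19% lower in replicate 2. At 100 TPM or more, where Pkm and Ldha belong, they were apart for 29.1% and lower for 11.2%.

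Ldha was 764 TPM in replicate 1 and 699 TPM in replicate 2, a log2 ratio of -0.13. By expected counts per library total the Ldha log2 ratio was -0.16, with an exact binomial 95% interval of -0.19 to -0.14 that covers counting error only. The SD of the log2 ratio among protein-coding genes of 100 to 1000 TPM was 0.10. For Pkm, at 1269 and 1192 TPM, the log2 ratio was -0.09, and the SD among genes above 1000 TPM was 0.083. Hk2, from 8.51 to 6.75 TPM, had the largest TPM ratio of the 10 in size, -0.30, and its intervals overlapped. The SD among genes of 5 to 20 TPM was 0.19. Most of the Hk2 fall in TPM lay in the short noncoding Hk2-202, which went from 3.84 to 2.55 TPM. By expected counts per library total the Hk2 ratio was -0.21, with an exact binomial 95% interval of -0.39 to -0.03. It was also -0.21 with TMM scaling. In both of these Eno2 had a ratio larger in size, 0.27 and 0.25. Eno2, Pfkp and Hk1 had log2 ratios of 0.14, 0.12 and 0.12 and overlapping intervals. The SD among protein-coding genes of 20 to 100 TPM was 0.14, with a median ratio of 0.04. For Eno2 the ratio by expected counts per library total was larger, 0.27 with an exact binomial 95% interval of 0.13 to 0.41, and it was 0.25 with TMM scaling and 0.26 with DESeq2 size factors. The interval of the count ratio, which covers counting error only, left out 0 for 7 of the 10 genes. The share of all genes for which it does so was not computed, so this count shows nothing particular to the 10.

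Among the 6 genes of the remaining glycolytic steps, 5 were lower in replicate 2, as were Pkm and Ldha. Of these 5, Pgam1 was near 0, at a log2 ratio of -0.009. Over all 15735 genes that averaged 1 TPM or more, 9204 were higher in replicate 2 and 6487 lower. The intervals were apart, and lower in replicate 2, for 3 of the 6, Gapdh, Tpi1 and Pgam2, at log2 ratios of -0.10, -0.07 and -0.76, against the 4.19% lower among all genes and, for Gapdh and Tpi1, the 11.2% lower among genes at 100 TPM or more. Marker genes of other tissues differed between the same pools. Skeletal muscle markers summed to 417 TPM in replicate 1 and 306 TPM in replicate 2; 11 of the 11 that averaged 1 TPM or more were lower in replicate 2, and Ckm was under 1 TPM in both. Sensory ganglion markers summed to 494 and 683 TPM, with 10 of 10 higher in replicate 2, led by Isl1 at 110 and 156 TPM. Pan-neuronal markers summed to 4030 and 4406 TPM, with 10 of 12 higher. Liver markers summed to 15.5 and 9.76 TPM, and Ttr, Serpina1a, Fgb and Ahsg were under 1 TPM in both. The part of these tissues in the levels of Pkm, Ldha, Hk2 or Eno2 was not tested.

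**Figure D5:**
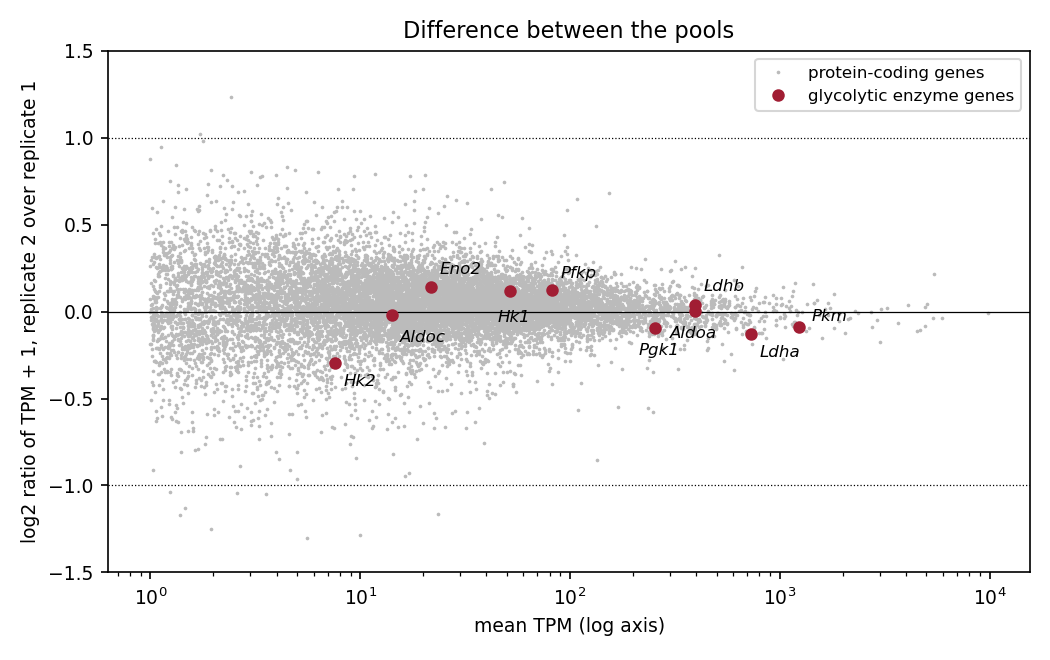
Log2 ratio of TPM + 1, replicate 2 over replicate 1, against mean TPM on a log axis, for 13517 protein-coding genes (grey, 9 of them beyond the vertical range) and the glycolytic enzyme genes (red). Dotted lines mark 2-fold; the 10 genes lie between -0.30 for Hk2 and 0.14 for Eno2, inside the cloud.

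Genes that feed and regulate the pathway are given from lists. Of 8 transporter genes, 7 were at 1 TPM or more in both libraries. Bsg, the chaperone of lactate transporters, was at 523 and 530 TPM, the glucose transporter Slc2a1 at 104 and 109 TPM, and the lactate exporter Slc16a3 at 31.5 and 26.2 TPM. Slc2a2, the glucose transporter of liver and islets, was lowest at 0 and 0.07 TPM. In this list 0 genes had deposited intervals higher in replicate 2 and 2 lower, against 10.1% and 4.19% of all genes.

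The bifunctional Pfkfb enzymes set the level of the activator of phosphofructokinase. They were listed with Tigar, a phosphatase that lowers the same activator, and all 5 genes were at 1 TPM or more, with Pfkfb3 at 17.3 and 17.6 TPM, Pfkfb4 at 12.9 and 13.1 TPM, Pfkfb2 at 12.2 and 13.3 TPM and Pfkfb1 lowest at 4.63 and 3.15 TPM. In this list the intervals were higher in replicate 2 for 1 gene and lower for 0, against 10.1% and 4.19% of all genes. That gene was Tigar, at 4.4 and 5.88 TPM, named after its values had been seen. Of 12 genes for the entry of pyruvate into mitochondria, 11 were at 1 TPM or more. Pdhb, of the pyruvate dehydrogenase complex, was at 162 and 177 TPM, the carrier gene Mpc1 at 134 and 139 TPM, Dld at 121 and 123 TPM, and the inhibitory kinase gene Pdk4 lowest at 0.40 and 0.58 TPM. In the pyruvate entry list 3 genes had intervals higher in replicate 2 and 0 lower, against the same background.

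The main paralog pairs differ in sequence, unlike Eno1 and Eno1b. Hk1 and Hk2 were identical at 71.8% of aligned bases, Aldoa and Aldoc at 75.9%, Ldha and Ldhb at 73.0%, and Pfkp at 67.9% with Pfkl and 69.0% with Pfkm. The longest run shared without a mismatch was 27 bases for Hk1 with Hk2 and 18 bases for Ldha with Ldhb. For the other genes, those copies elsewhere in the genome that were quantified held few counts. Copies were annotated genes with at least 90% identity over at least 50% of the leading transcript. Quantified ones took 0.048% and 0.047% of the counts of Ldha and its copies and 0.10% and 0.11% of those of Ldhb. Quantified copies of Aldoa and Pkm held at most 3 counts in a library, and no annotated copy met these limits for Hk1, Hk2, Pfkp, Aldoc or Eno2. Only 2 of 4 copies of Pkm, 4 of 6 of Ldha and 2 of 4 of Aldoa were quantified. Among those left out were Gm6560, 98.4% identical to Pkm, and Gm5452, 95.9% identical to Ldha. The effect of copies that were not quantified is unknown.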

How the data were processed

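Total RNA-seq of 2 pooled samples was analysed. Per the read-me files deposited by the authors, reads were aligned to transcripts of mm10 with GENCODE M4 annotation; the quantification program and the use of strand are not given in the sources used here. The deposited expected counts are estimated reads per gene or transcript and need not be whole. Per the file headers, TPM and FPKM values are normalized for length and depth, and the deposited percent values (IsoPct) state what part of its gene each transcript makes up. Its title names another series as its replacement; that one was not used here.

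Transcript types, coordinates and Pkm exons were taken from GENCODE M21 (GRCm38), in which 101510 of the 103639 mouse transcripts of the files were found. Paralog shares are each gene's part of the summed TPM of its enzyme. Genes averaging 1 TPM or more were compared between the pools as log2(TPM + 1), called where over 2-fold apart or where the deposited intervals did not overlap; the script was tested on simulated data. Copies were sought with minimap2 2.31 (at least 90% identity over 50% of the leading transcript). Alternatives used edgeR 4.0.16 (TMM) and DESeq2 1.42.0 (size factors) for scaling only. All 10 genes were named in full, their paralogs and other glycolysis enzymes by level, and of other lists the 3 highest and the lowest gene, or for markers the highest and those under 1 TPM; a few of these genes are not reported here. The members and lists were chosen with earlier results of these data known. The labels name separate embryo pools under 1 donor identifier, so the spread measures only these pools.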

Additional observations from a re-analysis of the deposited data

How the results depend on the processing

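No paired analysis was possible because the series holds a single group. With 1 group of 2 pools, nothing here separates pool from library, and counting error alone was narrow for the abundant genes. The Hk1 share of hexokinase TPM was 86.8% with expected counts, 89.1% with complete coding transcripts only and 87.5% with the expected counts of those. The Pfkp share of phosphofructokinase was 25.6%, 14.6% and 12.7% under the same settings, a move of over 1.5 times from 39.6%. The Aldoa share was 95.9%, 96.6% and 95.8%, and 96.2% with posterior mean TPM. The Eno2 share of enolase was 1.90% with posterior mean TPM, 0.78% with complete coding transcripts and 1.03% with their counts, against 1.76%. The Ldha share was 69.3% with expected counts and 69.2% with those of complete coding transcripts. The Pgk1 share was 99.99% (99.9879) and the Pkm share 99.9115% with posterior mean TPM, and the Pkm share was 99.975% with complete coding transcripts. The 2 settings restricted to complete coding transcripts were chosen after seeing the data. The M2 share of Pkm stayed within its SD under every alternative run, but only the posterior mean could have moved it further. Both Pkm transcripts are complete coding and of equal length, and leaving out 1 of 2 replicates always stays within the SD.

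The number of genes over 2-fold apart between the pools, 225, became 361 with a pseudocount of 0.1, 65 with 5, 28 with TMM scaling, 28 with DESeq2 size factors, 102 with posterior mean TPM, 381 without a filter and 36 with a mean of at least 5 TPM. The cause was not tested. The log2 ratio of Aldoa went from 0.00 to -0.04 with TMM and -0.03 with DESeq2 scaling, that of Aldoc from -0.02 to 0.02 with either, and that of Ldhb from 0.04 to -0.0043 with TMM; none was called. With TMM the ratios of Pgk1, Pkm and Ldha were -0.14, -0.13 and -0.17. Leaving out each replicate in turn gave the values of single libraries: 81.8% to 85.7% for Hk1, 38.6% to 40.6% for Pfkp, 96.5% to 96.6% for Aldoa, 100% for Pgk1, 1.67% to 1.85% for Eno2, 99.97% for Pkm, 63.6% to 66.2% for Ldha and 71.4% to 71.5% for M2. The order of the 10 genes was the same by FPKM, which had to be so, since within a library FPKM and TPM differ by a constant factor. In complete coding transcripts the order did change in 2 places. Pfkp, at 20.6 and 21.7 TPM, lay below Hk1, at 48.7 and 52.6 TPM. Eno2, at 7.56 and 10.8 TPM, lay below Aldoc, at 12.6 and 13.4 TPM.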

Other observations

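The oxidative and non-oxidative pentose phosphate genes, which divert glucose phosphate from glycolysis, were all detected. Of 7 genes, 7 were at 1 TPM or more in both libraries. Taldo1 was highest at 297 and 293 TPM, followed by Pgls at 179 and 164 TPM and Tkt at 107 and 106 TPM, and Rpia was lowest at 3.00 and 2.44 TPM. Taldo1 lay above Pgk1, at 263 and 247 TPM, in both libraries. In this list the deposited intervals were higher in replicate 2 for 1 gene and lower for 1 gene, against 10.1% and 4.19% of all genes.

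Gluconeogenesis, which runs several steps of glycolysis backwards in liver and kidney, was little represented. Of 7 genes, 3 were at 1 TPM or more in both libraries: G6pc3 at 24.4 and 25.6 TPM, Pcx at 18.6 and 19.1 TPM and Pck2 at 8.97 and 7.85 TPM. G6pc, the glucose phosphatase gene of liver, had an expected count of 0 in both. The intervals of none of the 3 expressed genes were apart between the pools.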
